A study of Homo sapiens with 3 samples.

Results

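The cells described here are the MESP1-high HAND1-negative cells of human embryonic stem cell micropatterns treated with BMP4. A cell belonged to this set where the BMP4 library gave it at least 4 unique molecular identifiers (UMIs, each standing for 1 captured RNA molecule) of MESP1, 0 of HAND1 and at most 1 of SOX17. The cells were chosen by these raw counts, so their levels of the 3 genes are a description and not a finding. Kept cells had at least 2000 detected genes and at most 15% of UMIs from mitochondrial genes, and in the BMP4 library, deposited with all barcodes, at least 3739 UMIs. The set held 956 of the 9401 kept BMP4 cells, or 10.2% (exact 95% interval 9.57 to 10.8), and the series held 23361 kept cells in all.

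MESP1 encodes a basic helix-loop-helix transcription factor that epiblast cells switch on as they leave the primitive streak, the furrow through which cells move inward at gastrulation to become mesoderm. Its expression is brief and overlaps with TBXT, MIXL1 and EOMES, which mark the streak, and with TBX6, MSGN1 and MESP2, which mark newly formed mesoderm. HAND1 marks lateral and extraembryonic mesoderm, and SOX17 marks endoderm and primordial germ cells. The rule thus keeps MESP1 cells with few or no counts of these later markers.

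The cells came from HES3 Mixl1:GFP, an established human embryonic stem cell line with a fluorescent reporter at MIXL1, grown as colonies on micropatterned coverslips, which confine each colony to a set area. All colonies were seeded with 10 µM Y-27632, and treatment began at 24 h and lasted 48 h. The BMP4 colonies received 50 ng/mL BMP4, the CHIR colonies 6 µM CHIR99021, an inhibitor of GSK3 that turns on WNT signalling, and the CHIR+Activin colonies 3 µM CHIR99021 with 100 ng/mL Activin A, a ligand of the NODAL receptors. Each treatment was 1 library of about 10 pooled micropatterns of 1 cell line, so position in the colony was lost, no replicate check is possible, and no p-value is given anywhere.

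The BMP4 library held 137174566 UMIs in its kept cells, and 8 to 12 cell barcodes were shared between any pair of libraries. The MESP1-high HAND1-negative cells had a median of 12601.5 UMIs and 4510.5 genes, against 12627 UMIs and 4511 genes in all other BMP4 cells. Mitochondrial RNA took a median of 4.10% of UMIs in the MESP1-high HAND1-negative cells and 4.08% in the other cells. Depth and mitochondrial share therefore differed little between these cells and the rest. Levels below are counts summed over the cells of a group scaled to a total of 1000000 UMIs (CPM), and intervals are exact 95% intervals that cover counting error only.

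The set lies on a continuum of MESP1 and HAND1 counts. MESP1 ranged between 4 and 22 UMIs in it, with a median of 6 (quartiles 5 and 8), and 237 of the cells stood at the threshold of 4 UMIs. Just outside it, 293 cells had 3 UMIs of MESP1 with HAND1 at 0 and SOX17 at most 1. Across the HAND1 threshold, 536 cells had 1 UMI of HAND1, 358 had 2 and 252 had 3, with no gap in the distribution. Of 1033 cells with at least 4 UMIs of MESP1 and none of HAND1, the SOX17 limit removed 77.

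**Figure D1:**
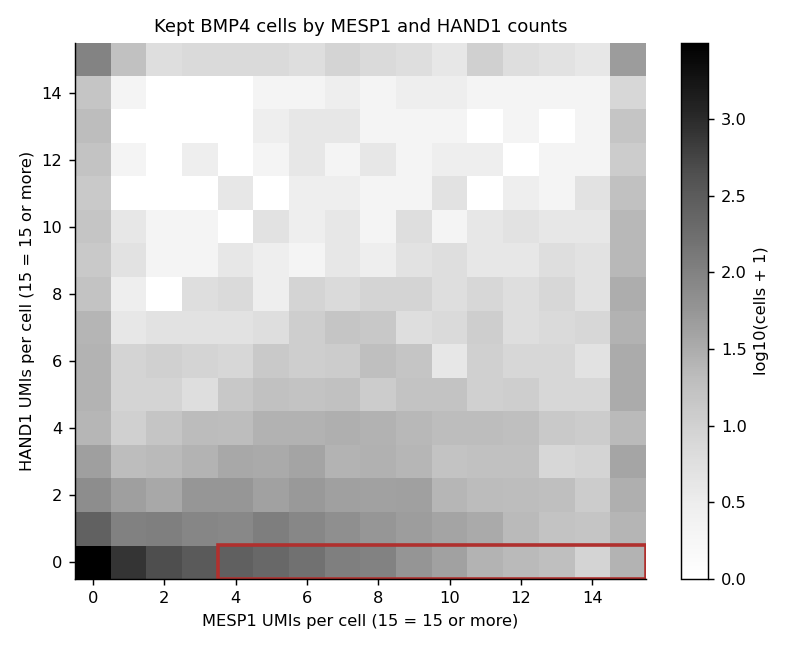
Number of kept BMP4 cells at each pair of raw MESP1 counts (horizontal axis) and HAND1 counts (vertical axis), shaded by log10 of the cell count plus 1, with counts of 15 or more joined. The red box encloses the 1033 cells with at least 4 MESP1 UMIs and no HAND1 UMI, of which 956 met the SOX17 limit, and cells continue across both edges of the box.

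For comparison, 3 neighbouring sets of BMP4 cells were formed. The MESP1-high HAND1-positive cells met the same MESP1 and SOX17 limits with at least 1 UMI of HAND1 and numbered 2142. The MESP1 1 to 3 cells had 1 to 3 UMIs of MESP1, none of HAND1 and at most 1 of SOX17, and numbered 1373. The TBXT-high MESP1-negative cells had at least 4 UMIs of TBXT, none of MESP1 or HAND1 and at most 1 of SOX17, and numbered 399. Their median depths were 13397, 12203 and 14408 UMIs. A low true level of HAND1 and its absence cannot be told apart at these depths.

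Against all other BMP4 cells, the MESP1-high HAND1-negative cells carried more RNA of streak genes and of nascent mesoderm genes and less of epiblast, amnion, germ cell and tight junction genes. The level of 12 of 9808 genes was at least 2-fold higher in them (0.122%) and that of 109 was at least 2-fold lower (1.11%). At 1.5-fold, a limit chosen after the data were seen, 104 genes were higher (1.06%) and 309 lower (3.15%). Of all 9808 genes compared, which had at least 10 CPM in either group, 51.9% were above 0 on the log2 ratio and 48.1% below. The rule used this contrast, so nothing is read from these shares or from the counts of list genes set beside them. Counts over a whole list below take every listed gene but MESP1, HAND1 and SOX17, whatever its level.

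The label of nascent mesoderm was checked on the 5 other markers of that name, and all 5 were above their levels in the other BMP4 cells. MESP2, a relative of MESP1 that acts in somite formation, stood at 48.9 CPM in MESP1-high HAND1-negative cells and 31.6 CPM in other BMP4 cells. TBX6, a T-box factor of paraxial mesoderm, stood at 19.7 CPM in MESP1-high HAND1-negative cells and 12.6 CPM in the other cells. MSGN1, a helix-loop-helix factor of presomitic mesoderm, stood at 18.6 CPM in MESP1-high HAND1-negative cells and 7.93 CPM in the other cells. Of these 3 genes MSGN1 alone was more than 2-fold higher. DLL3, a NOTCH ligand of presomitic mesoderm, stood at 40.4 CPM in MESP1-high HAND1-negative cells and 30.2 CPM in the other cells. APLNR, the apelin receptor of migrating mesoderm, stood at 46.9 CPM in MESP1-high HAND1-negative cells and 37.5 CPM in the other cells.

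The rest of the BMP4 library is not free of mesoderm, and the neighbouring sets place the markers more closely. All 5 of these genes were lower in TBXT-high MESP1-negative cells than in MESP1-high HAND1-negative cells, with 6.44 CPM of MESP2, 4.09 CPM of TBX6, 3.30 CPM of MSGN1, 7.86 CPM of DLL3 and 5.50 CPM of APLNR. MESP1-high HAND1-positive cells had more of 4 of them, with 81.2 CPM of MESP2, 27.8 CPM of TBX6, 68.8 CPM of DLL3 and 92.9 CPM of APLNR. MSGN1 was the exception, at 18.6 CPM (interval 16.4 to 21.1) in MESP1-high HAND1-negative cells and 18.0 CPM (16.6 to 19.5) in MESP1-high HAND1-positive cells, with a log2 ratio of 0.05 (interval -0.17 to 0.26). Of the 15 genes of the nascent and paraxial mesoderm list, 12 were above 0 against all other BMP4 cells and 3 below. These 5, FOXC1, PDGFRA and RSPO3 reached 10 CPM in either group, MSGN1 in the MESP1-high HAND1-negative cells alone.

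**Figure D2:**
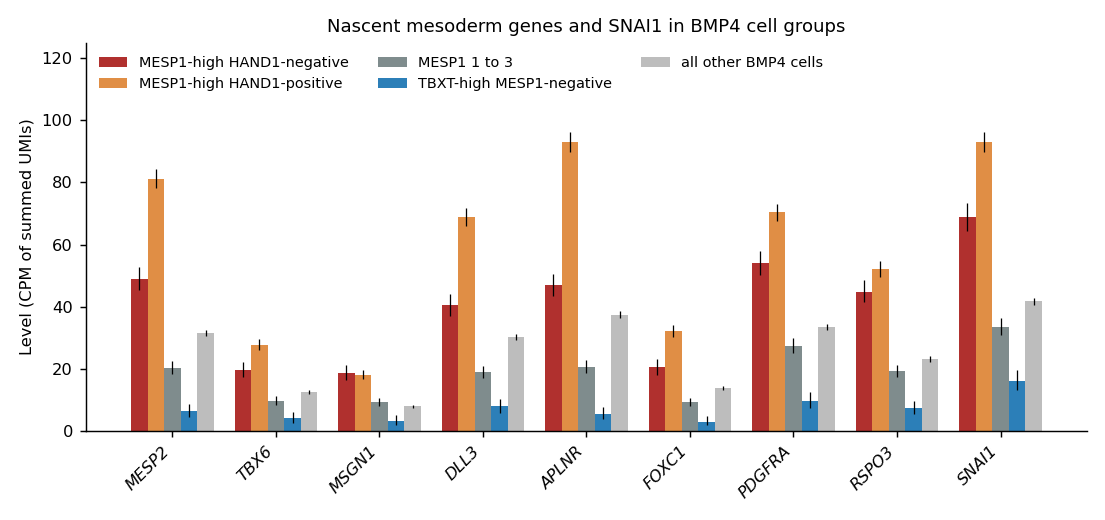
Level in CPM (vertical axis) of nascent mesoderm genes and of SNAI1 in MESP1-high HAND1-negative cells, the 3 neighbouring sets and all other BMP4 cells, with exact 95% Poisson intervals for counting error. MESP1-high HAND1-negative cells stand below MESP1-high HAND1-positive cells in every gene drawn except MSGN1 (18.6 CPM in MESP1-high HAND1-negative and 18.0 CPM in MESP1-high HAND1-positive cells), and above the MESP1 1 to 3 and TBXT-high MESP1-negative cells.

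Few of the cells held many of these markers at once. With every cell thinned to 10000 UMIs, which left 747 MESP1-high HAND1-negative cells and set aside 209 shallower ones, MESP2 was detected in 37.8% of them, DLL3 in 32.3%, APLNR in 32.5%, TBX6 in 17.4% and MSGN1 in 90 of the 747. Without thinning, over all 956 cells, the shares were 45.7% for MESP2, 37.7% for DLL3, 41.3% for APLNR, 22.9% for TBX6 and 13.6% for MSGN1. SOX2-positive cells with no MESP1 or TBXT UMI (median 14551.5 UMIs) served as reference cells. There the thinned shares were 1.56% for MESP2, 11.8% for DLL3, 1.87% for APLNR, 1.25% for TBX6 and 0.312% for MSGN1. Free RNA, assumed at 5% of UMIs, would give 1.20% for MESP2, 1.65% for DLL3, 2.94% for APLNR, 0.787% for TBX6 and 0.306% for MSGN1. Every share in the MESP1-high HAND1-negative cells was above both. Its ratio to the share in the SOX2-positive cells was smallest for DLL3, and the source of DLL3 in those cells was not tested. Of the 5 markers, a MESP1-high HAND1-negative cell had 1.32 on average, against 1.91 in MESP1-high HAND1-positive cells and 0.199 in TBXT-high MESP1-negative cells, with 25.7% of the MESP1-high HAND1-negative cells holding none and 13.9% holding 3 or more.

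Streak transcription factors were higher as well. TBXT, the T-box factor that defines the streak, stood at 352 CPM in MESP1-high HAND1-negative cells and 186 CPM in other BMP4 cells (log2 ratio 0.92). MIXL1, a homeobox gene of streak and early mesendoderm, stood at 470.2 CPM in MESP1-high HAND1-negative cells and 261 CPM in the other cells (log2 ratio 0.85). EOMES, a T-box factor needed for endoderm and cardiac mesoderm, stood at 247 CPM in MESP1-high HAND1-negative cells and 144 CPM in the other cells (log2 ratio 0.78). Of the 14 genes of the primitive streak list, 12 were above 0 on the log2 ratio, 6 of them by at least 1.5-fold, and the list median was 0.49, beside 0.01 over all genes compared. The 2 genes below the other cells were FGF8, at 8.77 CPM in MESP1-high HAND1-negative cells and 10.3 CPM in other cells, and GDF3, at 18.0 CPM in MESP1-high HAND1-negative cells and 21.6 CPM in other cells.

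These streak genes were also higher than in MESP1-high HAND1-positive cells, which is the reverse of the nascent mesoderm genes. TBXT stood at 352 CPM in MESP1-high HAND1-negative cells and 274 CPM in MESP1-high HAND1-positive cells. MIXL1 stood at 470.2 CPM in MESP1-high HAND1-negative cells and 386 CPM in MESP1-high HAND1-positive cells, and EOMES at 247 CPM in MESP1-high HAND1-negative cells and 203 CPM in MESP1-high HAND1-positive cells. TBXT, MIXL1 and EOMES thus parted from the nascent mesoderm genes in direction. FGF4, an FGF ligand of the streak, stood at 67.2 CPM in MESP1-high HAND1-negative cells and 34.9 CPM in MESP1-high HAND1-positive cells. NODAL, the ligand that induces mesendoderm, stood at 98.8 CPM in MESP1-high HAND1-negative cells and 62.1 CPM in MESP1-high HAND1-positive cells. Neither was highest in this set. FGF4 stood at 68.3 CPM in MESP1 1 to 3 cells and 73.5 CPM in TBXT-high MESP1-negative cells. NODAL had a mean of 0.92 thinned UMIs in MESP1-high HAND1-negative cells, 1.18 in MESP1 1 to 3 cells and 1.46 in TBXT-high MESP1-negative cells. Of the 14 streak genes 13 were above 0 against MESP1-high HAND1-positive cells. Of the 13 that reached 10 CPM in either group 12 were above 0, beside 53.0% of all genes compared, which met the same minimum. LHX1 was the exception, at 155 CPM in MESP1-high HAND1-negative cells and 235 CPM in MESP1-high HAND1-positive cells.

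Several of the leading higher genes encode secreted proteins or receptors. DKK1, a secreted inhibitor of WNT signalling, had the largest ratio, at 124 CPM in MESP1-high HAND1-negative cells and 45.3 CPM in other BMP4 cells (log2 ratio 1.46). It stood at 61.5 CPM in MESP1-high HAND1-positive cells, 77.9 CPM in MESP1 1 to 3 cells and 38.0 CPM in TBXT-high MESP1-negative cells, so the MESP1-high HAND1-negative cells had the highest level of the sets. FGF17, an FGF8-family ligand of the streak, stood at 317 CPM in MESP1-high HAND1-negative cells and 151 CPM in other BMP4 cells (log2 ratio 1.07). NTN1, the guidance cue netrin 1, stood at 129 CPM in MESP1-high HAND1-negative cells and 63.0 CPM in the other cells. EPHA4, an ephrin receptor, stood at 168 CPM in MESP1-high HAND1-negative cells and 92.5 CPM in the other cells. CYP26A1, which breaks down retinoic acid, stood at 197 CPM in MESP1-high HAND1-negative cells and 100.1 CPM in the other cells. ROR2, a receptor of WNT5A, stood at 486 CPM in MESP1-high HAND1-negative cells and 284 CPM in the other cells. Unlike DKK1, ROR2 and EPHA4 were near level with MESP1-high HAND1-positive cells, which had 497 CPM of ROR2 and 164 CPM of EPHA4. Those cells had 169 CPM of CYP26A1, 105 CPM of NTN1 and 244 CPM of FGF17. Over whole lists the genes were split, with 11 of 18 WNT ligands and secreted modulators above 0 and 7 below, and 17 of 33 migration and guidance genes above and 16 below. The guidance genes SEMA6A and SEMA3A were among the leading lower genes, with log2 ratios of -1.24 and -1.06.

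**Figure D3:**
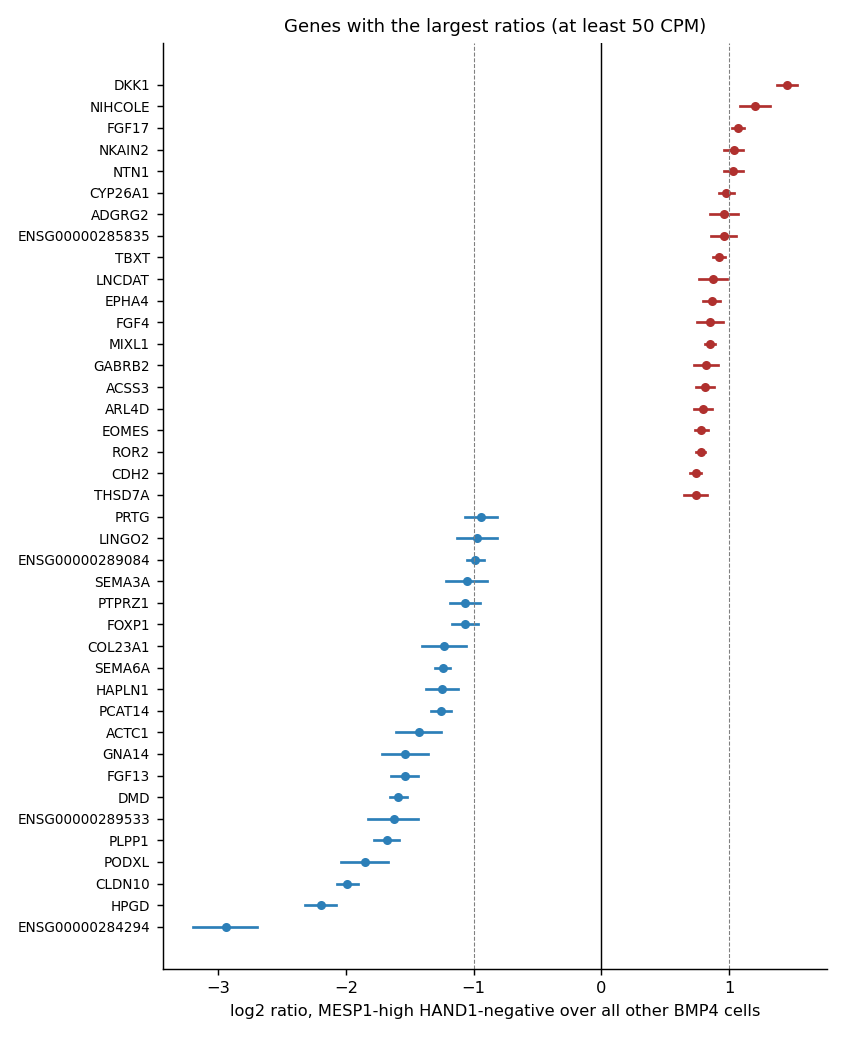
Log2 ratio (horizontal axis) of the level in MESP1-high HAND1-negative cells over that in all other BMP4 cells, for the 20 genes with the largest ratio each way among genes of at least 50 CPM in either group, with exact conditional 95% intervals for counting error; dashed lines mark 2-fold. DKK1 leads the higher genes at 1.46, and ratios of the lower genes reach past those of the higher ones, with ENSG00000284294 at -2.94 and HPGD at -2.20.

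The lower genes included those of epithelium, epiblast and other BMP4 fates. CLDN10, a tight junction claudin, stood at 91.7 CPM in MESP1-high HAND1-negative cells and 364 CPM in other BMP4 cells. HPGD, which degrades prostaglandins, stood at 42.9 CPM in MESP1-high HAND1-negative cells and 197 CPM in the other cells. PODXL, a sialomucin of the apical surface, stood at 18.6 CPM in MESP1-high HAND1-negative cells and 67.2 CPM in the other cells. Of the 17 tight junction and keratin genes 15 were below 0 and 2 above, with KRT8, a simple epithelial keratin, at 275 CPM in MESP1-high HAND1-negative cells and 438 CPM in the other cells. CDH1, the epithelial cadherin, was lower at 107 CPM in MESP1-high HAND1-negative cells, against 151 CPM in the other cells. CDH2, the cadherin gained as cells become mesenchymal, was higher at 388 CPM in MESP1-high HAND1-negative cells, against 233 CPM in the other cells. The list of EMT and cadherin genes that holds both had 5 of 18 genes above 0 and 13 below, with FN1, the matrix protein fibronectin, at 112 CPM in MESP1-high HAND1-negative cells and 166 CPM in the other cells.

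Pluripotency genes split in level. SOX2, which is lost early on the way to mesoderm, stood at 6.41 CPM in MESP1-high HAND1-negative cells and 25.8 CPM in other BMP4 cells. NANOG stood at 16.5 CPM in MESP1-high HAND1-negative cells and 32.2 CPM in the other cells. POU5F1 differed far less, at 808 CPM in MESP1-high HAND1-negative cells and 906 CPM in the other cells. Of the 18 epiblast genes 15 were below 0 and 3 above.

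Amnion and germ cell markers were lower, whereas endoderm markers were split. Of the 13 amnion genes 12 were below 0 and 1 above, and 4 reached 10 CPM in either group, ISL1 in the other cells alone. TFAP2A, a factor of amnion and surface ectoderm, stood at 11.1 CPM in MESP1-high HAND1-negative cells and 33.3 CPM in other BMP4 cells, and ISL1, a homeobox factor of amnion and heart progenitors, at 5.75 CPM in MESP1-high HAND1-negative cells and 16.2 CPM in other BMP4 cells. All 9 germ cell genes besides SOX17 were below 0, and 4 of them reached 10 CPM in either group, TFAP2C and PRDM1 in the other cells alone. TFAP2C, a factor of germ cell and amnion fates, stood at 8.77 CPM in MESP1-high HAND1-negative cells and 33.1 CPM in the other cells. SOX17 itself is limited by the rule. Of the 10 definitive endoderm genes 6 were above 0 and 4 below. CER1, which encodes the NODAL and BMP antagonist Cerberus and is also made in the anterior streak, stood at 383 CPM in MESP1-high HAND1-negative cells and 246 CPM in the other cells. FOXA2, a forkhead factor of endoderm, stood at 0.958 CPM in MESP1-high HAND1-negative cells and 3.15 CPM in the other cells. The summed level of the 8 amnion markers was 35.8 CPM in MESP1-high HAND1-negative cells and 90.8 CPM in other BMP4 cells, and none of the 8 was at 0 in the MESP1-high HAND1-negative cells. The summed level of the 6 germ cell markers besides SOX17 was 24.2 CPM in MESP1-high HAND1-negative cells and 78.7 CPM in other cells. With SOX17, which the rule caps, it was 27.9 CPM in MESP1-high HAND1-negative cells and 137 CPM in other cells. The 5 endoderm markers besides SOX17 summed to 395 CPM in MESP1-high HAND1-negative cells and 282 CPM in other cells, most of it CER1. The rule leaves out cells with HAND1 or more than 1 SOX17 UMI, and its part in these differences was not tested.

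Response genes of the BMP pathway were not higher than elsewhere in the library. Of the 12 BMP response genes all 12 were below 0, and the 9 that reached 10 CPM had a median log2 ratio of -0.48. ID1, a direct SMAD target, stood at 713 CPM in MESP1-high HAND1-negative cells and 889.7 CPM in other BMP4 cells. BAMBI, a decoy receptor, stood at 58.4 CPM in MESP1-high HAND1-negative cells and 82.3 CPM in other BMP4 cells. BMP4 itself stood at 30.8 CPM in MESP1-high HAND1-negative cells and 47.1 CPM in other BMP4 cells. The NODAL pathway had 6 of 16 genes above 0 and 9 below, and the 14 that reached 10 CPM had a median log2 ratio of -0.01. The targets LEFTY1 and LEFTY2 stood at 13.6 and 9.94 CPM in MESP1-high HAND1-negative cells, against 34.1 and 27.0 CPM in the other cells. NODAL itself was slightly higher, with a mean of 0.92 thinned UMIs in MESP1-high HAND1-negative cells and 0.86 in other BMP4 cells. No HOX gene reached the level needed for comparison in either group. Cell cycle genes differed little, since cells thinned to 10000 UMIs held a median of 41 UMIs of S phase genes in both groups and 67 UMIs of G2/M genes in MESP1-high HAND1-negative cells, against 63 in other BMP4 cells.

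Against MESP1-high HAND1-positive cells, which the rule parts by the HAND1 limit alone, 11 of 9709 genes were at least 2-fold higher in MESP1-high HAND1-negative cells (0.113%) and 51 at least 2-fold lower (0.525%). The sets also differed in MESP1, with a mean of 4.77 thinned UMIs in MESP1-high HAND1-negative cells and 6.36 in MESP1-high HAND1-positive cells, and in the share of cells among the highest 6% of doublet scores, at 7.43% of MESP1-high HAND1-negative cells and 10.4% of MESP1-high HAND1-positive cells. The part of either in the differences was not tested. The lower genes included CDH11 and regulators of mesenchymal cells. CDH11, a mesenchymal cadherin, stood at 15.2 CPM in MESP1-high HAND1-negative cells and 68.5 CPM in MESP1-high HAND1-positive cells (log2 ratio -2.17). ZEB2, a repressor of CDH1, stood at 16.4 CPM in MESP1-high HAND1-negative cells and 48.3 CPM in MESP1-high HAND1-positive cells. SNAI1, another CDH1 repressor that acts in the streak, differed less, at 68.7 CPM in MESP1-high HAND1-negative cells and 93.1 CPM in MESP1-high HAND1-positive cells. CDH2 went the other way, at 388 CPM in MESP1-high HAND1-negative cells and 308 CPM in MESP1-high HAND1-positive cells. Of the 18 EMT and cadherin genes 12 were below 0 and 6 above. Of the 16 that reached 10 CPM in either group 11 were below 0, beside 47.0% of all genes compared. SNAI2 and ZEB1 reached it in the MESP1-high HAND1-positive cells alone. LGR5, a receptor for R-spondins, stood at 21.4 CPM in MESP1-high HAND1-negative cells and 72.3 CPM in MESP1-high HAND1-positive cells.

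Signals and factors of later mesoderm were lower as well. BMP4 stood at 30.8 CPM in MESP1-high HAND1-negative cells and 85.7 CPM in MESP1-high HAND1-positive cells, and BMPER, an extracellular modulator of BMP, at 55.2 CPM in MESP1-high HAND1-negative cells and 149 CPM in MESP1-high HAND1-positive cells. WNT5A, a ligand of ROR2, stood at 94.3 CPM in MESP1-high HAND1-negative cells and 177 CPM in MESP1-high HAND1-positive cells. TBX3, a T-box factor of lateral and extraembryonic mesoderm, stood at 76.5 CPM in MESP1-high HAND1-negative cells and 141 CPM in MESP1-high HAND1-positive cells. Of the 15 genes of the lateral or extraembryonic mesoderm list besides HAND1, 13 were below 0 and 1 above. Of these, 5 reached 10 CPM in either group, MSX1 and SNAI2 in the MESP1-high HAND1-positive cells alone. All 5 were below 0, beside 47.0% of all genes compared, which met the same minimum. HAND1 is a gene of this list and its count parts the sets, so these counts are a description. CDH1 was level between the groups, at 107 CPM in MESP1-high HAND1-negative cells and 105 CPM in MESP1-high HAND1-positive cells.

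Against MESP1 1 to 3 cells, 36 of 9761 genes were at least 2-fold higher in MESP1-high HAND1-negative cells (0.369%) and 21 at least 2-fold lower (0.215%). All 15 nascent and paraxial mesoderm genes were above 0. Of these, 8 reached 10 CPM in either group, FOXC1, MSGN1 and TBX6 in the MESP1-high HAND1-negative cells alone. The share above 0 over all genes compared, which met the same minimum, was 48.6%. MESP1 counts chose both sets, so these counts are a description. GATA6, a zinc finger factor of mesoderm and endoderm, stood at 371 CPM in MESP1-high HAND1-negative cells and 185 CPM in MESP1 1 to 3 cells. SNAI1 stood at 68.7 CPM in MESP1-high HAND1-negative cells and 33.6 CPM in MESP1 1 to 3 cells. Lower genes included SEMA6A, a transmembrane semaphorin, at 186 CPM in MESP1-high HAND1-negative cells and 369 CPM in MESP1 1 to 3 cells. DMD, which encodes dystrophin, stood at 142 CPM in MESP1-high HAND1-negative cells and 340 CPM in MESP1 1 to 3 cells.

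Against TBXT-high MESP1-negative cells, 154 of 9863 genes were at least 2-fold higher in MESP1-high HAND1-negative cells (1.56%) and 129 at least 2-fold lower (1.31%), more than in the other comparisons of neighbouring sets. TBXT was close, at 352 CPM in MESP1-high HAND1-negative cells and 341 CPM in TBXT-high MESP1-negative cells, where a TBXT count chose the second set. Of the 13 streak genes besides TBXT 8 were above 0 and 5 below, with a median of 0.10, beside 50.4% of all genes compared above 0. GSC reached 10 CPM in the MESP1-high HAND1-negative cells alone and FGF8 in the TBXT-high MESP1-negative cells alone. PLXNA2, a semaphorin receptor, stood at 179 CPM in MESP1-high HAND1-negative cells and 21.4 CPM in TBXT-high MESP1-negative cells. LHX1, a homeobox gene of anterior streak and early mesoderm, stood at 155 CPM in MESP1-high HAND1-negative cells and 20.7 CPM in TBXT-high MESP1-negative cells. GATA6 stood at 371 CPM in MESP1-high HAND1-negative cells and 63.3 CPM in TBXT-high MESP1-negative cells. PDGFRA, a growth factor receptor of early mesoderm, stood at 54.0 CPM in MESP1-high HAND1-negative cells and 9.74 CPM in TBXT-high MESP1-negative cells. SEMA6A was lower at 186 CPM in MESP1-high HAND1-negative cells, against 557 CPM in TBXT-high MESP1-negative cells. Of the 17 tight junction and keratin genes 16 were below 0 in this comparison. The 14 that reached 10 CPM in either group were all below 0, beside 49.6% of all genes compared, which met the same minimum. CLDN4 and OCLN reached it in the TBXT-high MESP1-negative cells alone.

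**Figure D4:**
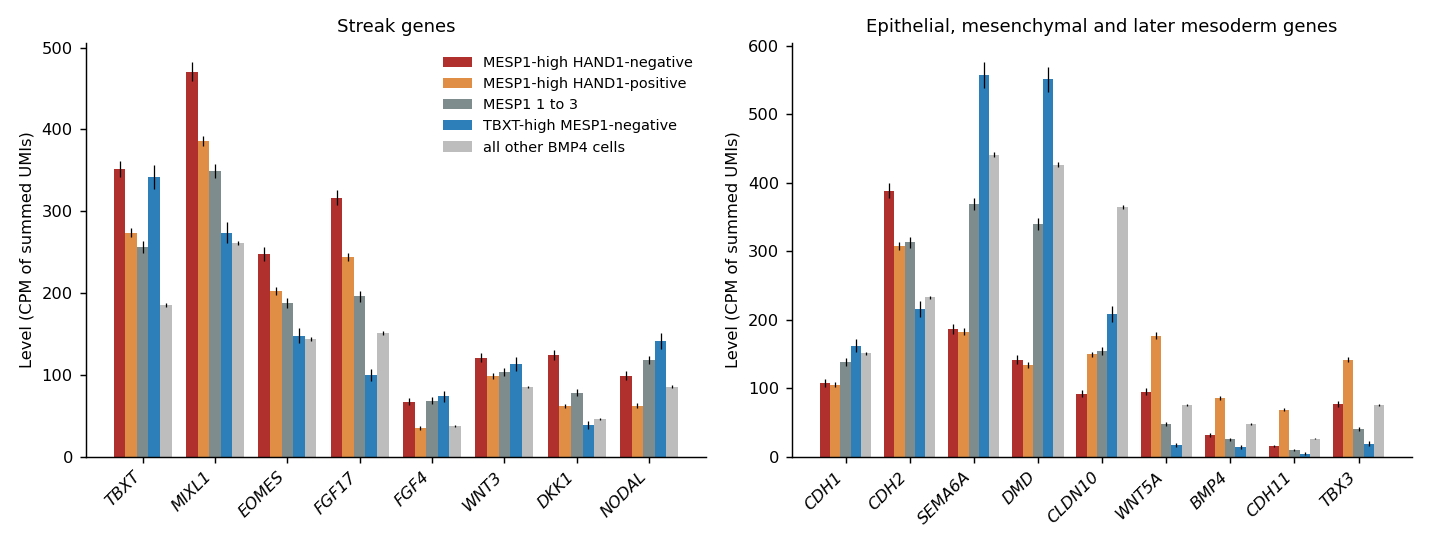
Levels in CPM (vertical axis) of streak genes (left) and of epithelial, mesenchymal and later mesoderm genes (right) in the MESP1-high HAND1-negative cells, the 3 neighbouring sets and all other BMP4 cells, with exact 95% Poisson intervals for counting error. MESP1-high HAND1-negative cells hold the most MIXL1 (470.2 CPM), FGF17 (317 CPM) and DKK1 (124 CPM), while CDH11, BMP4, WNT5A and TBX3 are highest in MESP1-high HAND1-positive cells.

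Most genes that separate TBXT-high MESP1-negative cells from MESP1-high HAND1-positive cells stood between the pair in the MESP1-high HAND1-negative cells. Of 101 genes of at least 50 CPM that were at least 2-fold higher in MESP1-high HAND1-positive than in TBXT-high MESP1-negative cells, the level in MESP1-high HAND1-negative cells lay between in 94 (93.1%). Of 70 genes at least 2-fold lower in MESP1-high HAND1-positive cells it lay between in 67 (95.7%). The median position, from 0 at TBXT-high MESP1-negative cells to 1 at MESP1-high HAND1-positive cells, was 0.73 and 0.68 on the log2 scale. Counts of MESP1 and HAND1 chose all 3 sets, so this order is a description. DKK1, ENSG00000285835, TMTC1 and VAV3 were the 4 genes of at least 50 CPM that stood at least 1.3-fold above both sets, and DKK1 stood 2.02-fold above the nearer one.

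The promoters of MIXL1 and DKK1 are shown because MIXL1 is a streak gene among the leading genes and the gene of the reporter, and DKK1 had the largest ratio. They are the 250 bases before the annotated start in the RefSeq table of GRCh38.p14, at chr1:226223414-226223663 and chr10:52314031-52314280, both on the plus strand, written 5′ to 3′, and capitals mark a match to the TCF/LEF site CTTTGAT.
MIXL1: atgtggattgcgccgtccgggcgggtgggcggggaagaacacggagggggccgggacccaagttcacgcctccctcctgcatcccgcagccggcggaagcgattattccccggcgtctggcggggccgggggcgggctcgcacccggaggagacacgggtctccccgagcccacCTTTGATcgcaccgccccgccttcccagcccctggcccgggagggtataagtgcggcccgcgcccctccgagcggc
DKK1: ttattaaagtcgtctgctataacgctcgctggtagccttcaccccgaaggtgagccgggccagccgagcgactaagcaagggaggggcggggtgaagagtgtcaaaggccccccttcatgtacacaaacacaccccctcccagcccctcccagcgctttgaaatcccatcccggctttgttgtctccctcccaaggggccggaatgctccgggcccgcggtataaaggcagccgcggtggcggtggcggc
The MIXL1 match lies 76 to 70 bases before the start, and the DKK1 window held no match. On either strand, CTTTGAT occurred in 2.27% of 34943 promoter windows of the same length. It occurred in 2 of the 14 higher named genes found in the table, GABRB2 and MIXL1, and in 0 of the 12 lower ones. The T-box motif TCACACC occurred in 2.76% of all windows and in 0 of the 14 higher and 0 of the 12 lower genes. The GATA motif AGATAA occurred in 9.19% of all windows, in 2 of the 14 higher genes, NIHCOLE and NKAIN2, and in 1 lower gene, LINGO2. The E-box CAAATG occurred in 11.1% of all windows, in 0 higher genes and in LINGO2. All were searched on both strands, and counts this small are not set apart from the shares over all windows. A match is a description of letters and does not show binding.

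Among themselves the MESP1-high HAND1-negative cells differed most in a handful of genes. With counts thinned to 10000 UMIs, the variance over the mean of a gene's counts (Fano factor, near 1 where only counting varies) had a median of 1.08 over 5650 genes. It was 11.8 for CLDN10, 9.16 for NTS, the neurotensin gene, 9.05 for CER1, 7.88 for DMD and 5.29 for LHX1. MESP1 itself had 1.40. At least 1 thinned UMI of LHX1 was found in 46.5% of the cells.

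Cells with and without MSGN1 differed in CER1 and LHX1, among other genes. MSGN1 had at least 1 thinned UMI in 90 MESP1-high HAND1-negative cells and 0 in 657. CER1 stood at 56.7 CPM (interval 42.2 to 74.5) in the MSGN1-positive cells and 432 CPM (417 to 448) in the MSGN1-zero cells, and at least 1 UMI of it was found in 16.7% of MSGN1-positive and 59.7% of MSGN1-zero cells. LHX1 stood at 46.7 CPM in MSGN1-positive cells and 168 CPM in MSGN1-zero cells. FGF17 stood at 136 CPM in MSGN1-positive cells and 345 CPM in MSGN1-zero cells, and GSC, a homeobox gene of the organizer, at 13.3 CPM in MSGN1-positive cells and 34.4 CPM in MSGN1-zero cells. CER1, LHX1 and GSC are known from the anterior streak and its derivatives, and all 4 genes were lower where MSGN1 was found.

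Genes higher in the MSGN1-positive cells included CDX1, a caudal homeobox gene, at 66.7 CPM in MSGN1-positive cells and 24.5 CPM in MSGN1-zero cells. FGF17, which is in the same caudal marker list as CDX1, went the other way, at 136 CPM in MSGN1-positive cells and 345 CPM in MSGN1-zero cells. CDX2, CDX4, NKX1-2 and EVX1, the rest of that list, are not reported for this split. ITGB8, an integrin subunit, stood at 63.3 CPM in MSGN1-positive cells and 10.4 CPM in MSGN1-zero cells. HAPLN1, a linker of hyaluronan matrix, stood at 110 CPM in MSGN1-positive cells and 28.0 CPM in MSGN1-zero cells, and UNC5C, a netrin receptor, at 67.8 CPM in MSGN1-positive cells and 19.3 CPM in MSGN1-zero cells. Of the other nascent mesoderm genes, MESP2, TBX6, DLL3, APLNR and FOXC1 did not differ beyond counting error, whereas PDGFRA and RSPO3 did, judged by whether the interval of the log2 ratio held 0. MESP2 stood at 53.3 CPM in MSGN1-positive cells and 52.4 CPM in MSGN1-zero cells, and TBX6 at 27.8 CPM in MSGN1-positive cells and 18.9 CPM in MSGN1-zero cells (log2 ratio 0.56, interval -0.12 to 1.19). PDGFRA was lower, at 27.8 CPM in MSGN1-positive cells and 58.9 CPM in MSGN1-zero cells, and RSPO3 higher, at 58.9 CPM in MSGN1-positive cells and 42.8 CPM in MSGN1-zero cells (log2 ratio 0.46, interval 0.01 to 0.89). The streak factors did not move together. TBXT stood at 417 CPM in MSGN1-positive cells and 356 CPM in MSGN1-zero cells, whereas EOMES stood at 137 CPM in MSGN1-positive cells and 264 CPM in MSGN1-zero cells, and MIXL1 at 337 CPM in MSGN1-positive cells and 510 CPM in MSGN1-zero cells.

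CER1, LHX1, FGF17, GSC, CDX1, ITGB8, HAPLN1 and UNC5C had the same directions in the MESP1-high HAND1-positive cells. That set shares the library but no cell with this one. MESP2 and DLL3 had log2 ratios of 0.03 and 0.09 in MESP1-high HAND1-negative cells. They had -0.09 and -0.04 in MESP1-high HAND1-positive cells, all with intervals that held 0. PDGFRA had -0.16 there (interval -0.43 to 0.11), and APLNR and FOXC1 had -0.02 and -0.20, also with intervals that held 0. TBX6 and RSPO3 were higher with MSGN1 in MESP1-high HAND1-positive cells, with intervals that did not hold 0. TBX6 had 0.53 (interval 0.15 to 0.88) and RSPO3 0.43 (0.15 to 0.70). CER1 stood at 168 CPM in the 188 MSGN1-positive and 494 CPM in the 1541 MSGN1-zero cells of that set. LHX1 stood at 119.7 CPM in its MSGN1-positive cells and 264 CPM in its MSGN1-zero cells. CDX1 stood at 43.1 CPM in its MSGN1-positive cells and 21.6 CPM in its MSGN1-zero cells. The log2 ratio for CER1 was -2.93 in MESP1-high HAND1-negative cells and -1.56 in MESP1-high HAND1-positive cells. The difference between these ratios was not tested. The genes were picked after the split had been seen, and cells of 1 library are not replicates. A thinned count of 0 for MSGN1 does not show its absence from a cell.

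**Figure D5:**
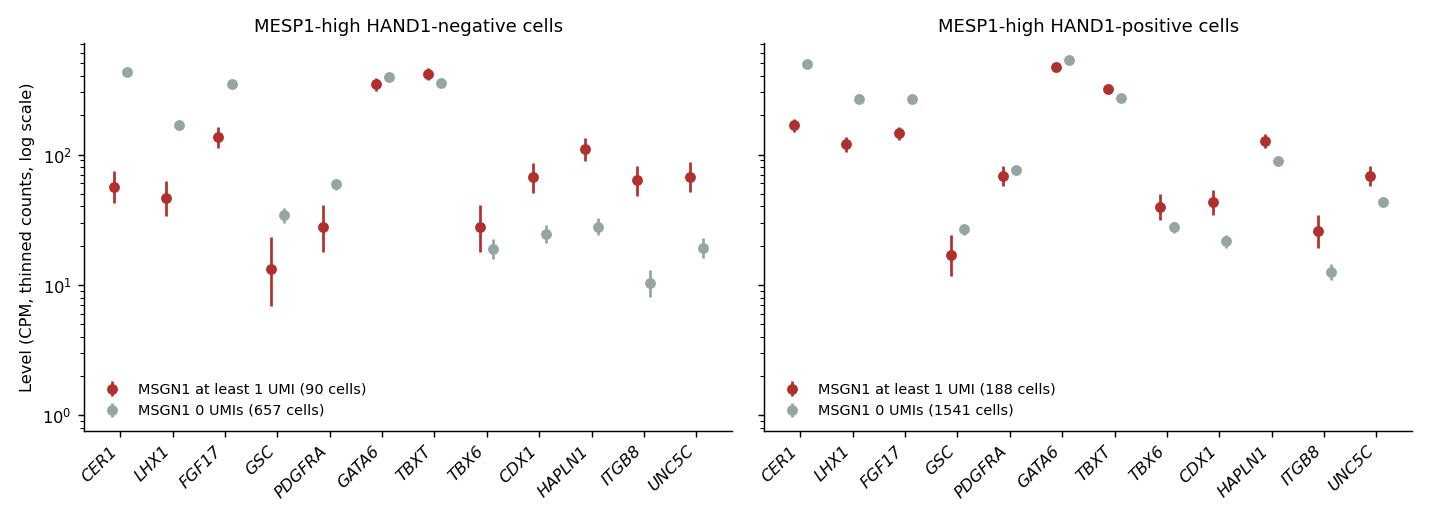
Level in CPM on a log axis (vertical) of 12 genes in cells with at least 1 thinned UMI of MSGN1 (red) and with none (grey), for MESP1-high HAND1-negative cells (left) and MESP1-high HAND1-positive cells (right), with exact 95% Poisson intervals for counting error. CER1, LHX1, FGF17 and GSC lie lower, and CDX1, HAPLN1, ITGB8 and UNC5C higher, where MSGN1 was found in both panels. Most of these genes were picked for their ratios in the left set, so the wider margin there is not read as a result.

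A second difference among the cells followed GATA6. In the 571 MESP1-high HAND1-negative cells with at least 2 thinned UMIs of GATA6, CER1 stood at 471 CPM, against 98.7 CPM in the 78 cells with none. LZTS1, a leucine zipper protein, stood at 173 CPM in GATA6-positive cells and 30.8 CPM in GATA6-zero cells, and PLXNA2 at 225 CPM in GATA6-positive cells and 61.5 CPM in GATA6-zero cells. DMD stood at 103 CPM in GATA6-positive cells and 292 CPM in GATA6-zero cells, and SEMA6A at 138 CPM in GATA6-positive cells and 329 CPM in GATA6-zero cells. CER1, LZTS1 and PLXNA2 are also among the genes higher in the set than in TBXT-high MESP1-negative cells, and DMD and SEMA6A among those lower. GATA6 did not differ by MSGN1 to a like extent, at 347 CPM in MSGN1-positive cells and 392 CPM in MSGN1-zero cells.

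Within the set the level of MESP1 itself moved with several genes. In bins of under 4, 4 to 5, 6 to 9 and 10 or more thinned MESP1 UMIs, of 246, 271, 191 and 39 cells, SNAI1 stood at 50.0, 69.7, 90.6 and 115 CPM. GATA6 stood at 315, 390, 454 and 485 CPM over the same bins, and WNT5A at 79.7, 98.9, 126 and 154 CPM. CDH1 stood at 118, 108, 90.6 and 59.0 CPM, in the other direction. The bins are cut on the count the rule used, so these levels are a description. CER1 had no single direction, at 345, 406, 432 and 300 CPM. The bin of 10 or more UMIs rests on 39 cells.

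The same rule was applied to the other treatments. It found 956 of 9401 cells in BMP4, against 18 of 6876 in CHIR+Activin (0.262%, interval 0.155 to 0.413) and 0 of 7084 in CHIR, where a count of 0 allows a share of up to 0.0423%. No CHIR cell had 4 UMIs of MESP1. With every cell thinned to 10000 UMIs, the rule found 636 of 7041 BMP4 cells (9.03%), against 5 of 6543 CHIR+Activin cells (0.0764%) and 0 of 6892 CHIR cells. The CHIR and CHIR+Activin files held only barcodes their authors had called as cells, so the cell calls differ between libraries.

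The BMP4 cells carried less CER1 and FGF17 and more MESP2 than the 18 CHIR+Activin cells of the same rule. CER1 stood at 383 CPM in the BMP4 cells and 1078 CPM (interval 976 to 1187) in the CHIR+Activin cells. FGF17 stood at 317 CPM in the BMP4 cells and 714 CPM in the CHIR+Activin cells. MESP2 stood at 48.9 CPM in the BMP4 cells and 5.23 CPM (0.634 to 18.9), which is 2 UMIs, in the CHIR+Activin cells. The pair of treatments thus differed in direction between MESP2 and the other 2 genes. MSGN1 stood at 18.6 CPM in the BMP4 cells and 0 in the CHIR+Activin cells, where 3 counts would be 7.85 CPM. MIXL1 stood at 470.2 CPM in the BMP4 cells and 562 CPM in the CHIR+Activin cells. These values describe 18 cells of 1 library on the CHIR+Activin side, picked as examples after their values were seen.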

How the data were processed

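Droplet single-cell RNA was counted in 3 libraries, 1 per treatment. The deposited values are raw UMI counts for each gene in each barcode. The authors made them with version 8.0.1 of Cell Ranger, per the file headers. The submitters' processing notes also list Seurat. Genome build and annotation: not given in the sources used here. The BMP4 matrix held all 1935344 barcodes, and barcodes with at least 3739 UMIs (10% of the 99th percentile of the top 10000) were taken as cells. Barcodes with fewer than 2000 genes or over 15% mitochondrial UMIs were left out, which removed 39 in BMP4, 622 in CHIR and 515 in CHIR+Activin. Doublets were not removed in the main values, since the rule names no such step, and an alternative left out the highest-scoring 6% by a Scrublet-like score. Free RNA was profiled from 1592061 BMP4 barcodes of at most 100 UMIs.

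Counts were summed over cells and scaled to CPM. Genes of at least 10 CPM in either group were compared, a group at 0 was set at 3 counts, and genes past 2-fold were counted without a test. Named genes were the 20 with the largest ratio each way against all other BMP4 cells, and 10 each way in the other comparisons, at 50 CPM or more, leaving out MESP1, HAND1 and SOX17, with the cell type markers, the list genes and the leading genes of each split added. FGF17, LHX1, GSC and CER1 stand in more than 1 list. Intervals are Poisson, conditional binomial or Clopper-Pearson at 95%. UMIs limit but do not remove counting error, and variation between libraries cannot be seen. The steps were tested on simulated data. Python 3.11, numpy, scipy and scikit-learn were used. The members, the 28 gene lists and the comparisons were chosen with earlier results of these data known. Members of the 28 lists are reported by list only where the text turns on them.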

Additional observations from a re-analysis of the deposited data

How the results depend on the processing

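The share of BMP4 cells meeting the rule, 10.2%, depends on its thresholds. It was 17.5% with at least 2 UMIs of MESP1, 2.81% with at least 8, 15.9% with up to 1 UMI of HAND1, 9.03% with the rule applied to thinned counts and 8.99% among cells of at least 16000 UMIs, the last chosen after seeing the data. Genes at least 2-fold higher against other BMP4 cells numbered 12 and became 19 without the highest doublet scores, 21 with up to 1 UMI of HAND1, 6 at a minimum of 50 CPM and 4235 at 3 counts. The lower ones numbered 109 and became 184 at 5 CPM, 19 at 50 CPM and 1555 at 3 counts. Against MESP1-high HAND1-positive cells, 11 higher genes became 19 with at least 8 UMIs of MESP1, 37 with the rule on thinned counts, 22 without the highest doublet scores, 20 with the mean of CPM over cells, 27 with thinned levels, 19 with free RNA subtracted, 19 at 5 CPM, 3 at 50 CPM and 1542 at 3 counts, and 51 lower genes became 77, 13 and 1050 at the 3 minimums. Against MESP1 1 to 3 cells, 36 higher genes became 8 at 50 CPM and 1101 at 3 counts, and 21 lower genes became 35 with thinned levels, 39 at 5 CPM, 2 at 50 CPM and 1521 at 3 counts. At 3 counts a gene absent from the MESP1-high HAND1-negative cells is set at that floor, which raises its level in them. This can add higher genes against other BMP4 cells and MESP1-high HAND1-positive cells, and how many it added was not tested. The cause of the other changes was not tested. These include the lower genes at 3 counts and the higher ones against MESP1 1 to 3 cells.

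All 868 recomputed gene ratios, over 74 results, kept their direction, and 29 of them slipped under 2-fold. The genes were mainly those named for the largest ratios in these same data, so kept directions were favoured by the choice. Of 300 recomputed list medians 283 kept their direction. The MSGN1 split, redone on unthinned counts after seeing the data, gave log2 ratios of -3.05 for CER1 and 1.40 for CDX1, and without the highest doublet scores -2.97 and 1.37. Of the 956 cells, 71 (7.43%) had such scores, against 5.84% of other BMP4 cells. No paired analysis was possible because each treatment has 1 library. The TBXT and TBX6 splits rest on 29 and 17 cells in the smaller part and are not described. A count of 0 for HAND1 limits UMIs and not expression, and 1 library per treatment limits every statement to these libraries.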
